A study of Mus musculus with 3 samples.

Results

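Nonsense-mediated decay (NMD) transcripts are annotated mRNA isoforms whose reading frame ends well upstream of the last exon junction. Here they are the transcripts that GENCODE M21 gives the class nonsense_mediated_decay and that reached a mean of 0.1 TPM or more over 3 libraries of cytosolic macrophage RNA. TPM is transcript abundance corrected for length and scaled to the same total in every table. The TPM of the read-based transcript table made this choice, so these levels are a description and carry no test. The rule kept 2174 of 7186 annotated NMD transcripts (30.3%), in 1680 of 4576 genes that have one. At the same level 36.6% of protein_coding, 33.8% of retained_intron and 28.4% of processed_transcript entries were kept. The cells were bone-marrow-derived macrophages (BMDM) of C57BL/6J mice, grown as primary cells. All 3 libraries had the same treatment: 12 h of Lipid A at 100 ng/ml, 12 h after washout, and 40 min of Lipid A at 100 ng/ml again. Lipid A, the membrane anchor of bacterial lipopolysaccharide, is sensed by Toll-like receptor 4 (TLR4). Total RNA of the cytosolic fraction was sequenced after ribosomal RNA depletion, as replicates 1, 2 and 3 of 1 group with no control, so no condition was compared. The libraries share a donor label and it is not given whether the cultures came from different animals, so p-values measure only the spread between these libraries, which may be technical. Sex and age were not given.

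During splicing a protein complex, the exon junction complex, is left near each exon junction, and the first ribosome removes it from the reading frame. When translation ends upstream of a remaining complex, the kinase SMG1 and the helicase UPF1 act on the mRNA and it is degraded, usually in the cytoplasm. Many splicing factors, among them the serine/arginine-rich (SR) proteins and the hnRNPs, limit their own level by splicing their pre-mRNA to such an isoform, often through a poison exon that holds a stop codon. The class used here is an annotation of structure, and no decay rate was measured. In bulk RNA, fewer cells with a transcript and less of it per cell cannot be told apart.

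The structure that gives these transcripts their class can be read at the stop codon. Shown first are 3 SR protein members whose stop lies in an exon that no coding transcript of the gene has; the lines give up to 60 coding bases of that exon that end with the stop codon, 5′ to 3′, with the stop codon in capitals. Coordinates are mm10, and the bases come from the GENCODE M21 transcripts.
Srsf3-201: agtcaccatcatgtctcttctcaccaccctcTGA
Tra2b-206: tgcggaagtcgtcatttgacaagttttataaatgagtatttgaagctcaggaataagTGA
Tra2a-202: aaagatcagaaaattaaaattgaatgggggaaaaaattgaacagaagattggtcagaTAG
The Srsf3-201 bases lie at chr17:29039454-29039487 (+ strand) in exon 4 of 7, an exon of 456 bases. Those of Tra2b-206 lie at chr16:22259181-22259240 (- strand) in exon 2 of 10, which is 276 bases long, and those of Tra2a-202 at chr6:49252965-49253024 (- strand) in exon 2 of 9, which is 306 bases long. After the stop codon 548, 1015 and 964 bases follow before the last junction.

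The second set comes from genes in which NMD transcripts held most of the TPM. In these the stop codon lies in exon sequence that coding transcripts also contain, except in Ostf1-205, whose stop exon is absent from coding transcripts.
Ppia-201: aaaactttcgagctcTGA
Mx1-205: agatggtccaaactgccttcgTAA
Oasl2-205: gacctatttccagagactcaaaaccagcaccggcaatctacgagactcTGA
Hnrnpu-206: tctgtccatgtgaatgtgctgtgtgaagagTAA
Ostf1-205: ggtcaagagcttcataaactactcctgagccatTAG
The Ppia-201 bases lie at chr11:6418226-6418243 (+) in exon 3 of 5, and those of Mx1-205 at chr16:97451528-97451551 (-) in exon 9 of 11. Those of Oasl2-205 lie at chr5:114901240-114901290 (+) in exon 2 of 5, those of Hnrnpu-206 at chr1:178325281-178325313 (-) in exon 14 of 17, and those of Ostf1-205 at chr19:18598954-18598989 (-) in exon 3 of 11. From the stop codon to the last junction there are 244, 311, 512, 183 and 549 bases in the order printed.

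In Rgs1, the stop codon lies in the first 4 bases of exon 2 of 5 (chr1:144248479-144248608, - strand), in an extension of a coding exon. The last 45 coding bases, which run across the junction from exon 1, are shown to give the frame.
Rgs1-204: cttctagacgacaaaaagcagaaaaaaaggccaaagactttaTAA
A further 3 junctions follow, the last 352 bases after the stop codon.

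Of 2174 members, 2172 had an annotated stop codon, and in 99.3% of these the last junction lay 50 bases or more after it. The share was 99.6% among the 5012 other NMD transcripts and 0.459% among 18296 protein_coding transcripts with a stop codon and a mean of 0.1 TPM or more. In 15 members the last junction was nearer or there was none. The median distance was 355 bases in members and 323.5 in the other NMD transcripts, with a median of 3 junctions after the stop codon in members. A single junction followed it in 474 members (21.8%), against 25.02% of the other NMD transcripts. The members were longer, with a median of 1393.5 bases against 1194.5, and both had a median of 7 exons. The best annotation support (level 1) was held by 745 members (34.3%) and by 26.6% of the others. In 556 members (25.6%) the annotation does not reach the start of the reading frame, so the frame up to the stop codon is partly assumed there.

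Stop codons fell into 4 positions relative to the coding transcripts of the same gene. In 1199 members (55.2%) the stop codon was made of bases that a coding transcript also contains in an exon, and in 513 (23.6%) it lay in an exon absent from coding transcripts. In 294 members (13.5%) it lay in an extension of a coding exon, and in 144 (6.62%) it was the stop codon of a coding transcript, followed by a further intron. Exons absent from coding transcripts held the stop codon in 18.1% of the other NMD transcripts. Among the codons themselves, TGA made 55.2% of member stops, TAA 24.5% and TAG 20.3%, beside 51.0%, 26.3% and 22.8% in the protein_coding transcripts. These shares are descriptions, since isoforms of a gene share exons.

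**Figure D1:**
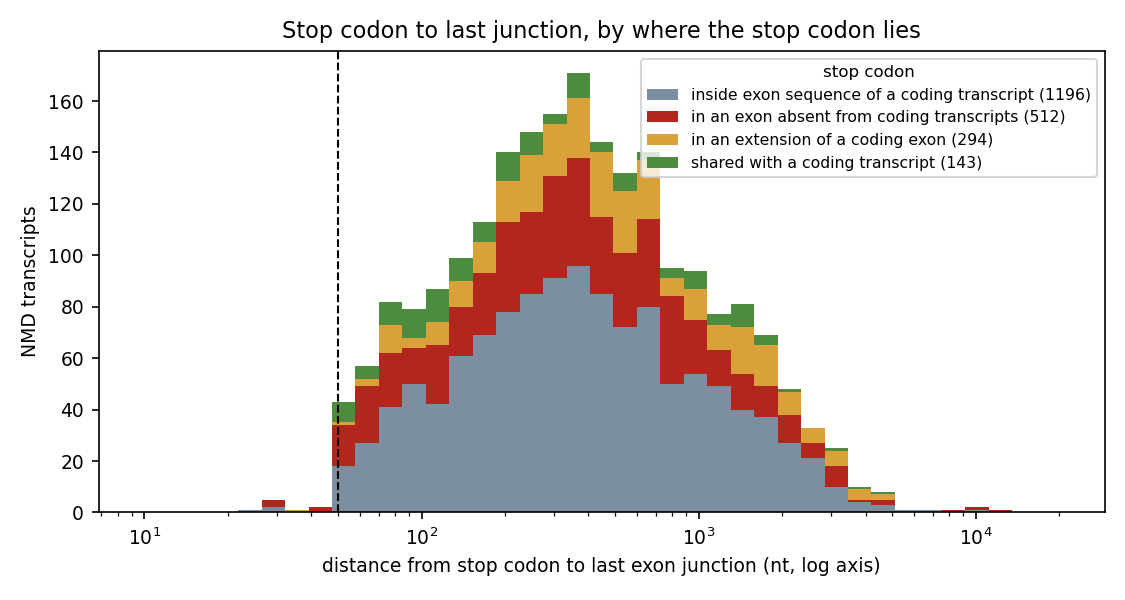
Number of NMD transcripts (y axis) by distance from the stop codon to the last exon junction (x axis, bases, log axis), for members with a distance of 10 bases or more, stacked by where the stop codon lies; the dashed line marks 50 bases. Nearly all members lie to the right of the line, and their median is 355 bases.

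How much of a member can be told from coding isoforms limits its estimate. Of the 2152 members in genes with a protein_coding transcript, 766 (35.6%) had no base outside the exons of those transcripts, and the median was 52.5 bases. A junction that no coding transcript has was present in 2046. In 57 members neither a base nor a junction was their own. Among the 12 most abundant members, 7 had 5 or fewer bases of their own, so their TPM rests on reads over 1 or 2 junctions and on the estimate of each table.

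The gene tables gave 38197192 to 46327891 expected counts per library. Members received 622047 to 677795 estimated counts per library in the read-based table and 450805 to 522998 in the alignment-based one. All 10 macrophage markers were at 1 TPM or more in every library. The summed TPM of each list of neutrophil, B, T and NK, dendritic, erythroid, and stromal and endothelial markers was at most 1.92, and Ly6g and Hba-a1 were at 0. Replicate 2 stood apart in the nuclear RNA Malat1, at 485 TPM against 1445 and 1726 in replicates 1 and 3, and in Neat1, at 16.1 against 87.7 and 88.3 TPM. Whether this nuclear RNA has a part in the values below was not tested.

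NMD transcripts held a similar share of the mRNA of their genes in each library. Of the summed NMD and protein_coding TPM in genes with a member, the NMD share was 12.5%, 12.0% and 12.9% in replicates 1, 2 and 3 of the read-based table (12.5 ± 0.407%, SD, n = 3). In the alignment-based table it was 10.5%, 10.1% and 10.3% (10.3 ± 0.219%, SD, n = 3). The libraries were close to each other in both tables. Each alignment-based share was below every read-based one, an order that the choice of members on read-based TPM favours. The share of retained_intron transcripts, taken the same way in their own genes, was 9.98%, 7.51% and 11.6% in the read-based table, lowest in replicate 2. The share of processed_transcript entries was 11.2%, 10.4% and 12.7%. Of all TPM in the read-based table, members held 0.239%, and the 12 highest held 19.7% of that. Most of the TPM in that table belonged to RNA of other classes. Members summed to 2427, 2574 and 2161 TPM in replicates 1, 2 and 3, and all protein_coding transcripts to 110701, 118785 and 96231 TPM.

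**Figure D2:**
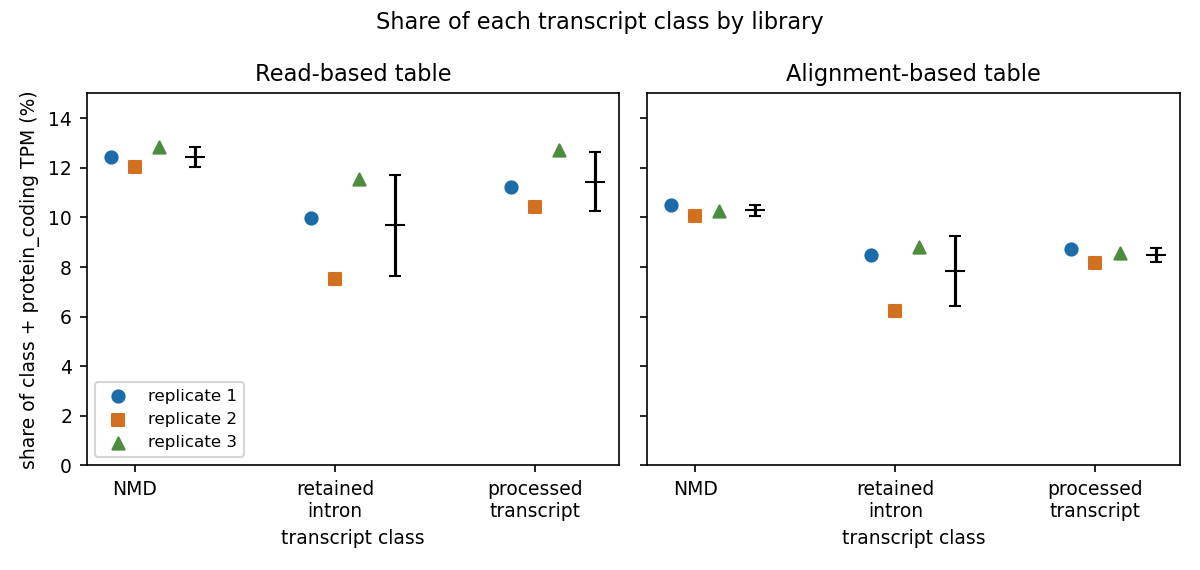
Share of NMD, retained_intron and processed_transcript entries in the class plus protein_coding TPM of their genes (y axis, percent), by library, in the read-based table (left) and the alignment-based table (right); crossbars and bars give mean ± SD of 3 libraries. NMD shares lie between 10.1% and 12.9%, while the retained_intron share of replicate 2 lies below those of the other libraries in both tables.

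Most members had a low TPM. The median of their mean read-based TPM was 0.319, 795 reached 0.5, 434 reached 1 and 35 reached 10. Protein_coding transcripts at a mean of 0.1 TPM or more had a median of 0.793. In every library 1538 members were at 0.1 TPM or more, and 117 were listed at 0 in at least 1 library. Just inside the threshold were Pex14-203 (0.1005 TPM), Per1-205 and Mtx1-215 (both 0.1006 TPM), and just outside were Pip5k1c-205 (0.0997 TPM), Arrdc1-208 and Ipo11-207 (both 0.0996 TPM). A library left out of the choice gives a measure the choice did not use. Of 2143 transcripts chosen on replicates 2 and 3, 1843 (86.0%) reached 0.1 TPM in replicate 1. Of 2106 chosen on replicates 1 and 2, 1849 (87.8%) did so in replicate 3, and of 2234 chosen on replicates 1 and 3, 1705 (76.3%) did so in replicate 2. By gene, 1320 had 1 member, 263 had 2 and 97 had 3 or more, up to 9 in Tmem234.

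The most abundant member was Ppia-201, from the gene of cyclophilin A, a prolyl isomerase. It stood at 86.3, 109 and 83.1 TPM in the read-based table and at 296, 301 and 275 TPM in the alignment-based one. NMD TPM was above the summed protein_coding TPM of Ppia in every library of both tables. Ppia-201 had 5 bases and 1 junction of its own, and Ppia has many processed pseudogenes, so its split is uncertain. Rgs1-204 came next; RGS1 speeds GTP hydrolysis by G protein alpha subunits and so shortens chemokine receptor signals. Its read-based TPM was 70.5, 106 and 21.5, with replicate 3 lowest, and the alignment-based TPM was 211, 249 and 63.2 in the same order. NMD transcripts held 97.2 ± 0.404% (SD, n = 3) of Rgs1 in the read-based table and 93.7 ± 0.907% in the alignment-based one, although the level moved between libraries.

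Interferon-induced genes were among the highest. Mx1-205, from the gene of an antiviral GTPase, was at 38.7, 31.0 and 25.4 TPM read-based and at 172, 88.1 and 118 TPM alignment-based. As background, inbred strains such as C57BL/6 carry an Mx1 allele that lacks coding exons and makes no functional protein. Oasl2-205, from a gene of the oligoadenylate synthetase family, was at 37.5, 37.0 and 32.7 TPM read-based and at 129, 104 and 107 TPM alignment-based. Both transcripts are built wholly of bases that coding isoforms also contain. Fcgr1-202, from the gene of the high-affinity IgG receptor of macrophages, showed 28.8, 36.4 and 28.9 TPM read-based, with replicate 2 highest. In the alignment-based table it was at 46.1, 15.3 and 22.0 TPM, with replicate 2 lowest, so the tables order the libraries differently.

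Ostf1-205, of an SH3 domain adaptor first described in osteoclasts, was at 29.8, 35.7 and 28.6 TPM, and Hnrnpu-206, of a nuclear matrix RNA-binding protein, at 25.3, 29.7 and 22.9 TPM. Lilr4b-204 and Lilrb4a-205 come from neighbouring, closely related receptor genes on chromosome 10, Rpsa-206 from a ribosomal protein gene and Ifi209-202 from an interferon-induced gene family, so that reads shared with copies make their values uncertain.

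**Figure D3:**
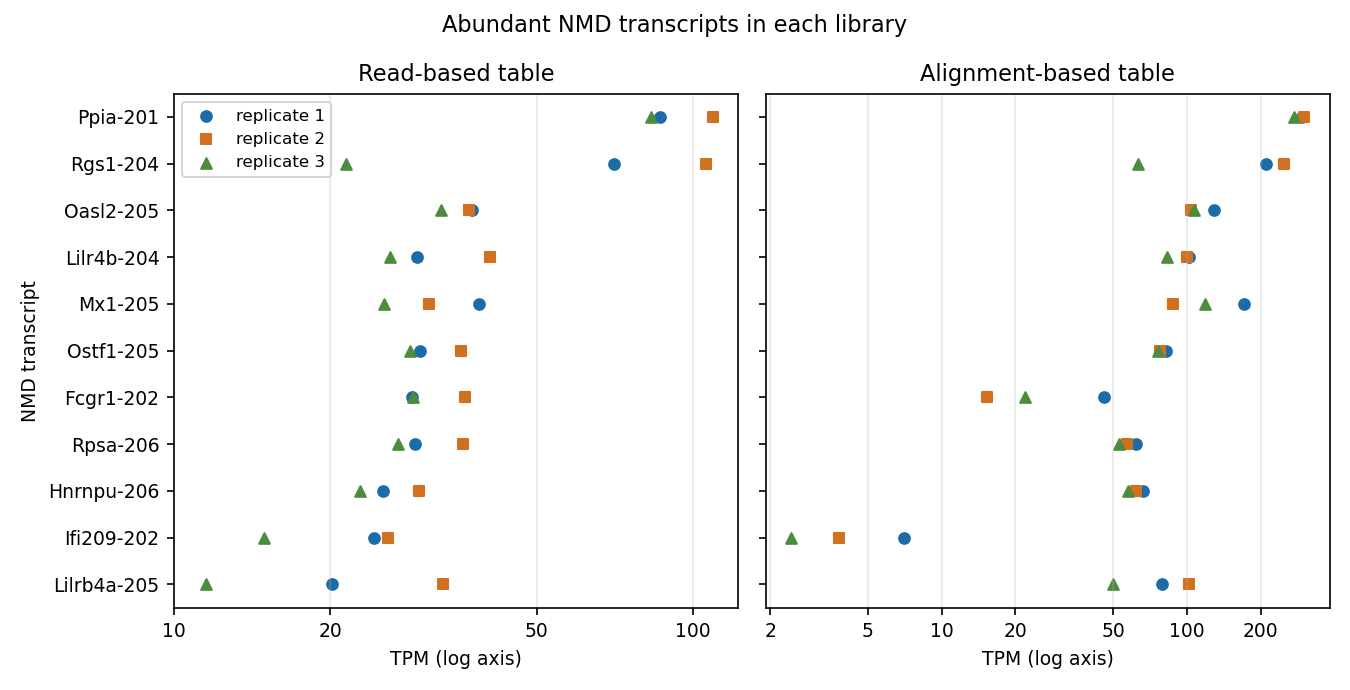
TPM (x axis, log axis) of 11 of the 12 NMD transcripts with the highest mean read-based TPM (y axis), in the read-based table (left) and the alignment-based table (right), with 1 marker per library. Ppia-201 leads in both tables, Rgs1-204 is lowest in replicate 3, and Ifi209-202 lies at 14.9 to 25.9 TPM read-based and at 2.44 to 7.03 TPM alignment-based.

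To ask how NMD and coding isoforms compare within a gene, log2((NMD TPM + 0.1)/(protein_coding TPM + 0.1)) was taken per library from summed TPM of each class. It was tested against 0 with limma in all 2407 genes that have both classes and a mean total of 1 TPM or more in both tables. The alignment-based table was used for the main values because the read-based one had chosen the members; both start from the same reads, so calls among members are a description. Of all genes tested, 2222 (92.3%) had NMD below protein_coding at an adjusted p under 0.05 and 80 (3.32%) had it above. The tested genes with a member numbered 1488, of which 1303 were below, 80 above and 105 neither. That all 80 genes above had a member follows from the choice, since a gene with mostly NMD TPM passes the threshold. The median log2 ratio was -3.50 in genes with a member and -4.55 in all genes tested. The median NMD share of a gene with a member was 11.4% read-based, with quartiles of 5.17% and 27.1%, and 7.43% alignment-based, with quartiles of 2.23% and 22.0%; over all genes tested, with or without a member, it was 5.18% and 2.99%.

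Of the 80 genes above, 73 had NMD over 50% in every library of both tables, and 67 were above in each fit that left out 1 replicate. In the same fit to the read-based table, which had chosen the members, 63 of them were above and 2 below. Among the genes of the 12 most abundant members, 8 were above, 2 below and 2 neither. Over all 1488 tested genes with a member, 80 were above. High NMD TPM chose the 12 and favours calls above, so their counts are a description. For Ppia the log2 ratio was 0.93 ± 0.16 (SE, n = 3, limma adjusted p = 0.00396), with NMD at 65.6 ± 1.15% alignment-based and 73.2 ± 1.41% read-based (SD). For Rgs1 it was 3.88 ± 0.18 (SE, limma adjusted p = 3.51e-05) and for Hnrnpu 2.07 ± 0.17 (SE, limma adjusted p = 0.000204). The Hnrnpu share was 80.5%, 82.2% and 79.8% alignment-based and 82.4%, 85.6% and 83.2% read-based, so the libraries and the tables gave nearly the same picture.

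In Mx1, where 3 members were summed, NMD held 67.6%, 66.4% and 70.9% alignment-based and 65.3%, 62.2% and 63.3% read-based. The log2 ratio of Mx1 was 1.11 ± 0.17 (SE, limma adjusted p = 0.00247). In Oasl2 the NMD share was 70.3%, 69.5% and 71.5% alignment-based, with a log2 ratio of 1.25 ± 0.17 (SE, limma adjusted p = 0.00127). It was 58.1%, 51.7% and 54.1% read-based, with a log2 ratio of 0.27 that was called neither way (limma adjusted p = 0.213). Ostf1 had a log2 ratio of 0.79 ± 0.16 (SE, limma adjusted p = 0.00709) with NMD at 63.4 ± 0.945% and 63.8 ± 1.20% (SD) in the alignment-based and the read-based table. Rpsa was called neither way (log2 ratio 0.42, limma adjusted p = 0.0578), but above with a pseudocount of 1 (limma adjusted p = 0.0057); its log2 ratio was 1.41 in the read-based table.

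Beside Rgs1, the named genes with the highest NMD shares in both tables were mostly of lower TPM. Hyi, of hydroxypyruvate isomerase, had 99.6 ± 0.645% alignment-based and 99.2 ± 1.42% read-based (SD, n = 3), with its member Hyi-202 at 2.80, 4.39 and 2.82 TPM read-based and protein_coding TPM of 0.0704, 0 and 0. Styx, of a catalytically inactive phosphatase, had 97.3% and 95.8%, and Ifi214, of an interferon-induced family, had 96.7% and 97.2%. Mrpl32, of a mitochondrial ribosomal protein, had 92.9% and 93.6%, and Gga2, of a Golgi adaptor for clathrin, had 92.6% and 89.3%. In Gtpbp4, of a GTPase of ribosome assembly, the shares were 90.0% and 90.5%. In Lilrb4a they were 88.2 ± 10.01% and 96.2 ± 0.828%, with the alignment-based value falling to 78.9% in replicate 3. Styx-204, Mrpl32-201 and Gga2-202 have no base outside coding exons.

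The splicing regulators are the class best known for NMD isoforms. Of 13 SR protein genes, 11 have both an NMD and a protein_coding transcript, 9 had a member and 12 transcripts were members. All 11 were among the 2407 genes tested, of which 1488 had a member. In 9 of the 12 the stop codon lay in an exon absent from coding transcripts (75%, beside 23.6% over all members). Of the 9 genes in the test, 8 had NMD below protein_coding and 1, Srsf2, neither. Over all 1488 tested genes with a member, 1303 were below and 105 neither. The median NMD share of the SR genes was 12.2% alignment-based and 19.0% read-based, beside 7.43% and 11.4% over all genes with a member. Srsf2-204 was at 4.71, 7.68 and 4.02 TPM read-based, highest in replicate 2, and Srsf2 had an NMD share of 47.4 ± 7.29% alignment-based (SD, n = 3). Srsf2-204 has neither a base nor a junction that coding transcripts lack, so the split of Srsf2 is uncertain. Srsf3-201, with the poison exon printed above, was at 2.51, 2.75 and 1.69 TPM read-based beside 5.01, 4.85 and 4.17 TPM of coding transcripts. Its gene had an NMD share of 21.4 ± 2.43% alignment-based and a log2 ratio of -1.86 ± 0.18 (SE, limma adjusted p = 0.000399). Tra2b-206 was at 1.74, 1.78 and 1.42 TPM read-based, and NMD held 12.2 ± 1.84% of Tra2b alignment-based. Tra2a-202, likewise printed for its exon and named after its values were seen, was at 1.96, 0.791 and 1.58 TPM, lowest in replicate 2. Srsf6 divided the tables, with an NMD share of 53.9 ± 1.46% read-based and 13.8 ± 8.29% alignment-based. It was below in the alignment-based table (limma adjusted p = 0.0019), where its log2 ratio was -2.71. In the read-based table the ratio was 0.22, called neither way (limma adjusted p = 0.281).

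Of 57 hnRNPs and other splicing regulators, 42 have both classes and 38 had a member, 65 transcripts in all, the most of any list. All 42 were among the 2407 genes tested, of which 1488 had a member. In the test 30 of the 38 were below, 2 above (Hnrnpu and Prpf4b) and 6 neither, with median NMD shares of 15.1% alignment-based and 15.6% read-based. Over all 1488 tested genes with a member, 1303 were below, 80 above and 105 neither. Prpf4b, of a kinase of the spliceosome, named after its values were seen, had 81.1 ± 2.01% alignment-based and 85.3 ± 1.78% read-based (SD, n = 3). Ddx5-208, from an RNA helicase gene, was at 21.8, 10.01 and 19.4 TPM read-based and 46.6, 16.1 and 43.9 TPM alignment-based. It was lowest in replicate 2 in both tables, and it carries 1265 bases outside coding exons. Ddx5 was below (log2 ratio -1.38, limma adjusted p = 0.0197), but not without replicate 1 (limma adjusted p = 0.0505). In the read-based table its log2 ratio was -0.54, called neither way (limma adjusted p = 0.0596). Rbm39, of a splicing coactivator, had opposite signs in the tables: 62.2 ± 7.63% NMD and a log2 ratio of 0.72 read-based, 34.1 ± 1.35% alignment-based and called below (limma adjusted p = 0.00377). Hnrnpa1 was at 43.7 ± 5.36% alignment-based and was called neither way (log2 ratio -0.37, limma adjusted p = 0.142), but below with a pseudocount of 1 (limma adjusted p = 0.0414).

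Of 26 NMD and exon junction factors, 5 have both an NMD and a protein_coding transcript in the annotation. Of these, 4 were tested and 3 had a member, beside 1488 of all 2407 genes tested. All 3 were below, as were 1303 of the 1488 tested genes with a member. Smg1-204, of the kinase that phosphorylates UPF1, was at 0.840, 0.504 and 1.44 TPM read-based and at 0 in every library of the alignment-based table. Smg5-202 was at 0.175, 0.139 and 0.204 TPM read-based. Magohb-202, of an exon junction complex core gene, was at 0.0443, 0.682 and 0 TPM, so nearly all of it came from replicate 2. Magohb was not below with a pseudocount of 0.01 (limma adjusted p = 0.0735).

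Of 85 ribosomal protein genes, 19 have both classes and 17 had a member. All 19 were tested, and 1488 of all 2407 genes tested had a member. Of the 17, 14 were below and 3 neither, beside 1303 and 105 of the 1488 tested genes with a member. The median NMD share of the ribosomal protein genes was 2.93% alignment-based. Those called neither way included Rpsa and Rpl12, the latter chosen for mention after its values were seen, at 45.9 ± 3.17% alignment-based; its log2 ratio was -0.24 there and 1.58 in the read-based table. Ribosomal protein genes have many processed copies, so reads may be divided among them. Of 27 translation factors, 7 have both classes and 6 had a member: 4 were below, Eif4a2 above and Eef1b2 neither. Over all 1488 tested genes with a member, 1303 were below, 80 above and 105 neither. Eif4a2-210, of a cap-binding complex helicase, was at 6.59, 8.62 and 6.05 TPM read-based and 21.5, 22.7 and 19.5 TPM alignment-based, and the NMD share of its gene was 71.5 ± 3.38% alignment-based (log2 ratio 1.32, limma adjusted p = 0.00166). In the read-based table the share was 56.8 ± 1.51% and the log2 ratio 0.39, called neither way (limma adjusted p = 0.0788). Eif4a2-210 has neither a base nor a junction of its own. Of 16 stress response genes 2 had a member; Hspa5-204, of the endoplasmic reticulum chaperone BiP, was at 19.3, 16.3 and 15.1 TPM read-based, and NMD made 17.9 ± 3.97% of Hspa5 alignment-based.

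In the lists tied to the Lipid A response a minority of genes have both classes, so their counts are small. This also held for the ribosomal proteins (19 of 85) and the NMD factors (5 of 26). Most tested genes were below in any case (92.3% of all, and 1303 of the 1488 with a member). Of all 2407 genes tested, 1488 had a member. Of 23 TLR4 pathway genes, 5 have both classes; Irak2, Tbk1 and Ikbkb had a member, all below, with alignment-based NMD shares of 2.58% to 3.76%. Of 16 NF-kB genes, 4 have both classes; Rela, Nfkb1 and Relb had a member, all below, at 1.35% to 10.7%. Of 22 cytokines and chemokines, 2 had a member. Cxcl16-202, of a membrane-bound chemokine, was at 11.8, 10.5 and 5.67 TPM read-based, lowest in replicate 3, and NMD made 32.3 ± 3.73% of Cxcl16 alignment-based (log2 ratio -1.07, limma adjusted p = 0.00389). Tgfb1-202 was at 0.105, 0.161 and 0.407 TPM. Of 21 interferon-stimulated genes 7 had a member: Mx1 and Oasl2 were above and 5 below. Over all 1488 tested genes with a member, 80 were above and 1303 below. Rsad2-202, of the antiviral enzyme viperin, was at 12.1, 3.45 and 7.59 TPM read-based beside 402, 373 and 250 TPM of coding transcripts. Its replicate 2 was lowest and the mean NMD share of Rsad2 was under 3% in both tables. Of 20 lysosome and phagocytosis genes 3 had a member, all below; Ctsl was at 0.126% and Gpnmb at 0.694% alignment-based. Macrophage markers Fcgr1 and Itgam had NMD shares of 11.0 ± 4.84% and 0.353 ± 0.0129% alignment-based.

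**Figure D4:**
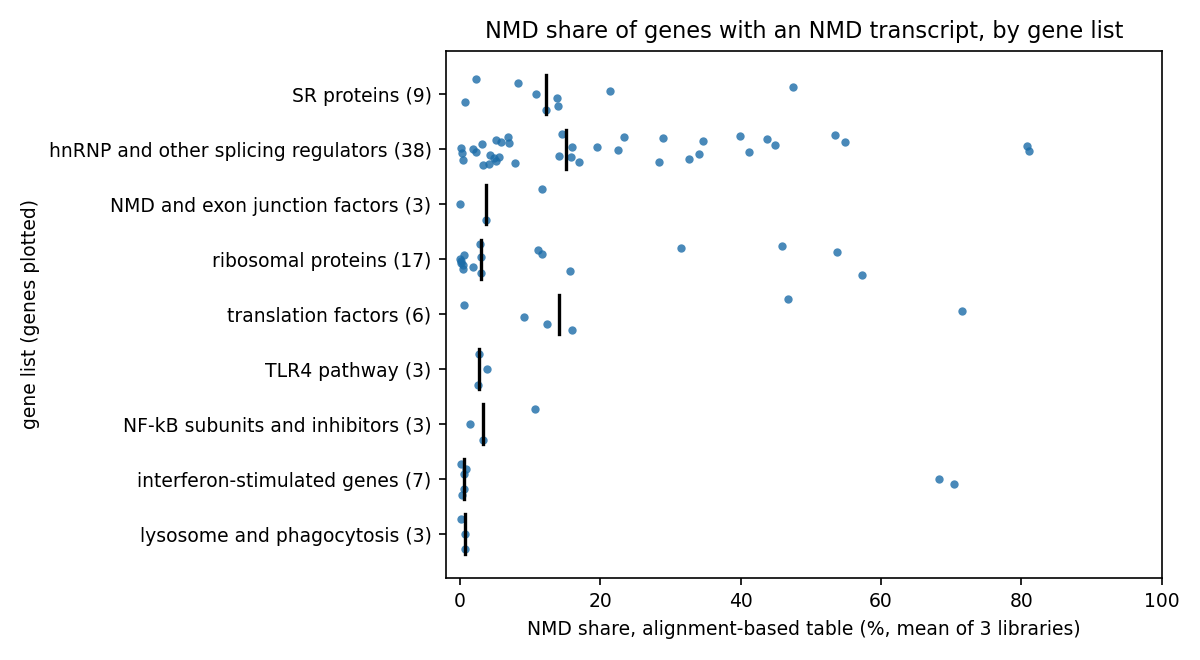
NMD share of NMD plus protein_coding TPM in the alignment-based table (x axis, percent, mean of 3 libraries) for each tested gene with a member, by gene list (y axis, number of genes in parentheses); 1 point per gene, with bars at the median of each list, for lists with 3 or more genes. Splicing regulators spread from near 0 to 81.1%, while the interferon-stimulated list holds Mx1 and Oasl2 near 70% and all other genes under 1%.

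The transcript tables differed by more than the spread between libraries in many genes. The difference, read-based minus alignment-based log2 ratio, was tested with limma in the same 2407 genes. As deposited, the read-based ratio was higher in 1629 genes (67.7%) and the alignment-based one in 160 (6.65%). The TPM of the same mRNAs is larger in the alignment-based table: factors of 0.361, 0.455 and 0.377 bring its NMD and protein_coding total to the read-based one in replicates 1, 2 and 3, so that a pseudocount of 0.1 weighs less there. With this scaling, chosen after seeing the data, 607 genes (25.2%) were higher read-based and 169 (7.02%) higher alignment-based. Genes with a member made up 549 of the 607 and 125 of the 169; the first direction is favoured by the choice of members on read-based TPM.

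Over the 1488 genes, mean NMD shares in the tables had a Pearson r of 0.891 and a Spearman rho of 0.830, given as a description across genes that share libraries and reads. In 1171 genes the shares lay within 10 percentage points, in 241 the read-based share was over 10 points higher and in 76 the alignment-based one was. On the log2 scale, the largest gaps toward the read-based table were in Ankfy1, Rps12 and Cct8. Ankfy1, of an endosomal Rab5 effector, was at 81.7 ± 1.45% against 4.78 ± 1.75% (SD, n = 3). Rps12 was at 44.2 ± 12.2% against 1.76 ± 0.593%. The mean NMD TPM of Rps12 was 2.40 read-based and 6.36 alignment-based, while its mean coding TPM was 2.79 and 343. The Rps12 gap thus lay mostly in the coding sum. Cct8, of a chaperonin subunit, was at 27.3 ± 1.12% against 1.62 ± 2.81%. Toward the alignment-based table, large gaps were in Mgat4b and Mia2. Mgat4b, of a glycosyltransferase, was at 1.73 ± 2.35% against 26.1 ± 1.54%. Mia2, of cargo export from the endoplasmic reticulum, was at 2.91 ± 1.40% against 22.3 ± 6.31%. The only Mia2 member, Mia2-214, was at 0, 0 and 0.08 TPM alignment-based. The alignment-based NMD TPM of Mia2, 6.35 on average, thus lay almost wholly in NMD transcripts that are not members. These genes were picked for their gaps, so the values are a description. Of all members, 110 were at 0 in every library of the alignment-based table. Those with the highest read-based TPM were Grip2-204 (20.1, 0.521 and 0.923 TPM), Tor1aip1-206 (3.01, 2.00 and 3.27 TPM) and Olfr93-202 (1.44, 1.81 and 2.28 TPM).

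In genes with 1 member, the absolute log2 difference between the scaled tables had a median of 0.52 where the member had no base of its own (422 genes). It was 0.61 with 1 to 99 such bases (339 genes) and 0.64 with 100 or more (379 genes). More bases of its own did not go with a smaller gap between tables in these medians.

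**Figure D5:**
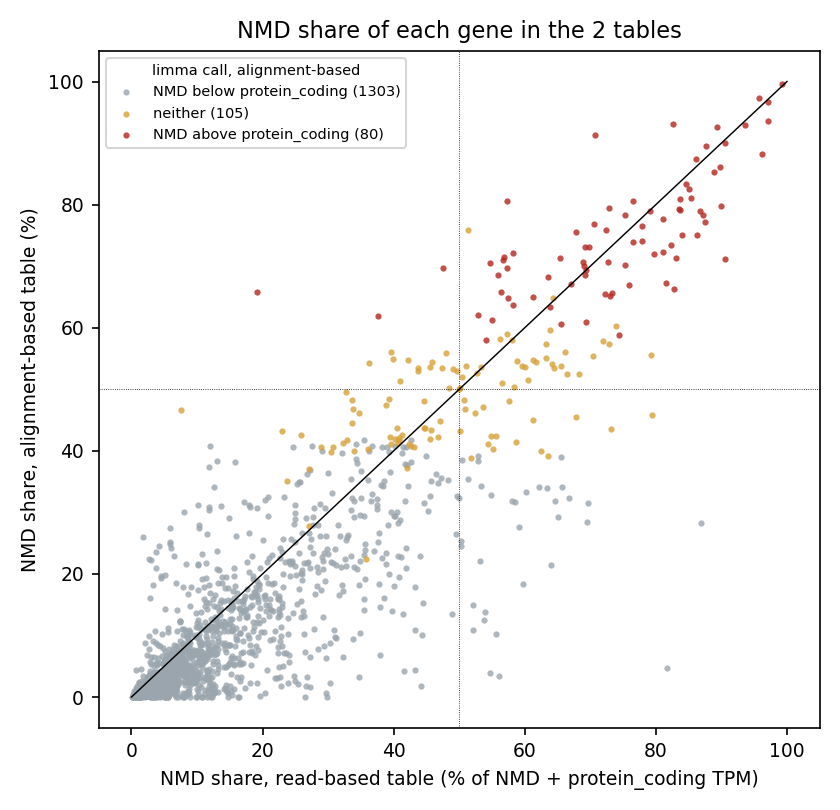
NMD share of each of the 1488 tested genes with a member in the read-based table (x axis, percent, mean of 3 libraries) and in the alignment-based table (y axis), coloured by the limma call on the alignment-based ratio; the solid line marks equal shares and dotted lines 50%. The 80 genes called above lie mostly in the upper right, and genes such as Ankfy1 (81.7% against 4.78%) lie far below the line.

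Within the same range of TPM, libraries differed more in NMD transcripts than in coding transcripts. Between 0.1 and 0.5 TPM the median coefficient of variation over 3 libraries was 42.8% for NMD, 35.4% for protein_coding and 57.1% for retained_intron transcripts. From 1 to 5 TPM it was 21.9%, 14.7% and 41.8%, and at 5 TPM or more 22.0%, 14.8% and 26.3%. These medians are a description, since TPM was also used to choose the members. Members had a median of 79.7 estimated counts and 1393.5 bases. Protein_coding transcripts of 0.1 TPM or more had 297 and 2221. Whether count or length has a part in the spread was not tested, and the highest range has no upper limit. Among members of 1 TPM or more the widest spread was in Tmed2-205, of a cargo receptor, at 0, 11.6 and 4.98 TPM, and in Ywhae-203, of a 14-3-3 protein, at 0, 8.14 and 4.06 TPM. Next came Grip2-204, Pitpna-201 at 1.33, 4.58e-06 and 2.66 TPM, and Eif4a1-201 at 0.533, 9.64 and 6.49 TPM. In Tmed2, Ywhae and Pitpna the coding transcripts stayed between 25.2 and 39.6 TPM in all 3 libraries of the read-based table.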

How the data were processed

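Each of the 3 libraries had 2 deposited transcript tables and a gene table. Per the file headers, the read-based table has the layout of kallisto and the alignment-based tables that of RSEM; no source used here names the tools or versions, and strand use is likewise not given. The authors deposited estimated counts (expected counts, not whole) and TPM per transcript, both per library, with mm10 and annotation M21 per the accompanying text files. The deposited bounds of TPM were read but not used.

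NMD and protein_coding TPM were summed per gene. The log2 ratio, with a pseudocount of 0.1, was tested in limma 3.58.1 (R 4.3.3) with Benjamini-Hochberg adjustment over all genes tested, after a test on simulated data. Adjusted p under 0.05 was called. Stop codons, junctions and shared bases were computed from the GENCODE M21 annotation with pandas 2.3.3; all transcripts matched. Named transcripts were the 12 highest, the 8 genes of highest NMD share, the 6 with the largest gap between tables, up to 4 genes per list, the 3 on each side of the threshold, the 5 of widest spread, and the 3 highest at 0 in the alignment-based table. The members and lists were chosen with earlier results of these data known. Alternatives were other thresholds, pseudocounts, filters, tables, estimated counts, variance priors and leaving out each replicate. Some named items are not reported here.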

Additional observations from a re-analysis of the deposited data

How the results depend on the processing

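The member count of 2174 was 795 at a mean of 0.5 TPM and 434 at 1 TPM, and 4307 when TPM was rescaled over nuclear protein_coding and NMD transcripts; it lay between 2106 and 2234 with 1 replicate left out, and 1538 transcripts were at 0.1 TPM in every library. The alignment-based table gave 2506 at the same threshold and 1707 after scaling to the read-based total, a scaling chosen after seeing the data. The summed NMD share of 12.5% was 10.3% in the alignment-based table and 9.22% from estimated counts, which carry no length correction. Genes with NMD below and above protein_coding numbered 915 and 31 with a filter of 5 TPM, where only 975 genes were tested. Without a filter they numbered 2926 and 112, of 4491 genes tested. Over the other alternatives, each with 2407 genes, the counts lay between 2179 and 2257 below and between 57 and 98 above. Genes whose ratio differed between tables numbered 1789 as deposited, 775 with a pseudocount of 0.01, 2220 with a pseudocount of 1, 707 with a filter of 5 TPM and 776 after scaling; they were 1328 to 1435 with 1 replicate left out. Beyond the smaller set under the filter, the cause was not tested. Of the NMD shares of named genes, 42 moved by more than 1 SD between tables and 19 did not. Leaving out 1 replicate moved the read-based share by over 1.5 times in 9 of 62 named genes. Without replicate 2, Mgat4b went from 1.73% to 0.394%, Magohb from 13.3% to 5.95%, Tmed2 from 14.4% to 8.26% and Ywhae from 10.1% to 5.81%. Without replicate 1, Tmed2 was at 21.6%, Ywhae at 15.2% and Tbk1 at 1.51%, against 2.30%. Without replicate 3, Irak2 went from 9.19% to 5.29%, Pitpna from 3.62% to 1.73%, Tgfb1 from 0.554% to 0.314% and Ctsl from 0.489% to 0.222%. No paired comparison of conditions was possible because all libraries form 1 group. The ratios and the difference between tables were taken within each library.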
